A study of Mus musculus with 15 samples.

Results

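Junctions between a 5′Sμ bait and the constant-gene end of the immunoglobulin heavy chain locus (Igh) that lies beyond Sγ1 were examined in stimulated mouse splenic B cells. The window is 102 kb long and ends at 114551999 on chromosome 12 (mm9), and every listed junction whose prey position fell in it was taken as a member. It held 439 of the 36735 junctions in Igh (250 kb up to 114699999, from the same lower end) and of 42200 junctions in all over 10 CSR-HTGTS libraries. The members lay between 114456937 and 114551978. CSR-HTGTS sequences junctions of one fixed break, the bait, with any other break, the prey.

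Class switch recombination replaces Cμ by joining breaks that the deaminase AID starts in Sμ to breaks in the switch region of another constant gene. Each of these switch regions lies on the 5′ side of its gene, in the order γ1, γ2b, γ2c, ε and α from the bait outwards, and an enhancer cluster, the 3′ regulatory region, lies beyond Cα. Anti-IgD dextran, LPS and IL-4 were given to direct switching to γ1, and IL-4 is also known to induce transcription of ε. A productive join deletes the DNA in between, whereas an inversional join turns it round. SHLD1 is a subunit of the shieldin complex, which acts with 53BP1 to limit resection of broken ends, and XLF is a factor of nonhomologous end-joining (NHEJ).

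The cells came from C57BL/6 mice of 4 genotypes, WT, Shld1-/-, Xlf-/- and Shld1-/- Xlf-/-, and had been cultured with the same stimuli for 96 h. The mice were 6 to 17 weeks old per the study's methods, and the knockouts were carried by the whole animal. Genotypes were taken as printed with the junction profiles of the study, where each library can be recognised by its number of Sγ1 junctions, giving 3 WT, 3 Shld1-/-, 2 Xlf-/- and 2 Shld1-/- Xlf-/- libraries. The number of Sγ1 junctions is therefore not independent of the genotype given here. The GEO genotype label is the same for 4 of the libraries (WT 1, Shld1-/- 2, Xlf-/- 2 and Shld1-/- Xlf-/- 2) and another for 6. WT 2 is labelled Shld1-/-, WT 3 Xlf-/-, Shld1-/- 1 WT, Shld1-/- 3 Shld1-/- Xlf-/-, Xlf-/- 1 WT and Shld1-/- Xlf-/- 1 Xlf-/-. In Sγ1, direct joins, which were not used to recognise libraries, were 30.7% ± 0.361, 15.2% ± 2.15, 15.6% ± 3.68 and 5.62% ± 0.163 of junctions without insertion by printed genotype (WT, Shld1-/-, Xlf-/- and Shld1-/- Xlf-/-, SD, n = 3, 3, 2 and 2). By GEO label they were 21.7% ± 7.49, 23.5% ± 10.3, 16.5% ± 13.1 and 9.21% ± 4.93 (n = 3, 2, 3 and 2). Each test between genotypes below is given by printed genotype and by GEO label. The labels also hold a target-locus entry that goes with the GEO genotype. It names a deletion from Sm to Sa for the libraries labelled WT, an Ia deletion on top of it for those labelled Shld1-/- or Xlf-/-, and inserted CBEs downstream of Cg2a for those labelled Shld1-/- Xlf-/-. The methods used here do not describe it. Its effect cannot be told apart from that of the label. Every library had junctions in Sγ1 (at least 300) and 5′ of Ighe (at least 1), sites that lie between Sμ and Sα. The libraries held 1159 to 8110 Igh junctions, with the 3 libraries printed as WT the deepest, and 9 to 130 members each. Reads carried no molecular identifiers, so the Wilson intervals (95%) given here cover counting error only.

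No member carried a switch-region name in the lists, and none was flagged for mapping quality or as a duplicate. The prey sequence of 423 members matched 1 place in GRCm38, all at the same distance from their mm9 position, and these matches placed the members among the genes of GENCODE M21. Of the other members, 11 had no match and 5 had more than 1, and these 16 were placed by their matched neighbours. Only 23 members lay in an annotated exon. The stretch on the 5′ side of Ighe, up to Ighg2c, held 233 members, the stretch 3′ of Igha 70, that 5′ of Ighg2b 43, that 5′ of Ighg2c 32 and that 5′ of Igha 21. The gene bodies held fewer, with 19 in Ighg2b, 11 in Ighe, 8 in Igha and 2 in Ighg2c. These stretches were marked out after the positions had been seen, and their values are descriptions.

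**Figure D1:**
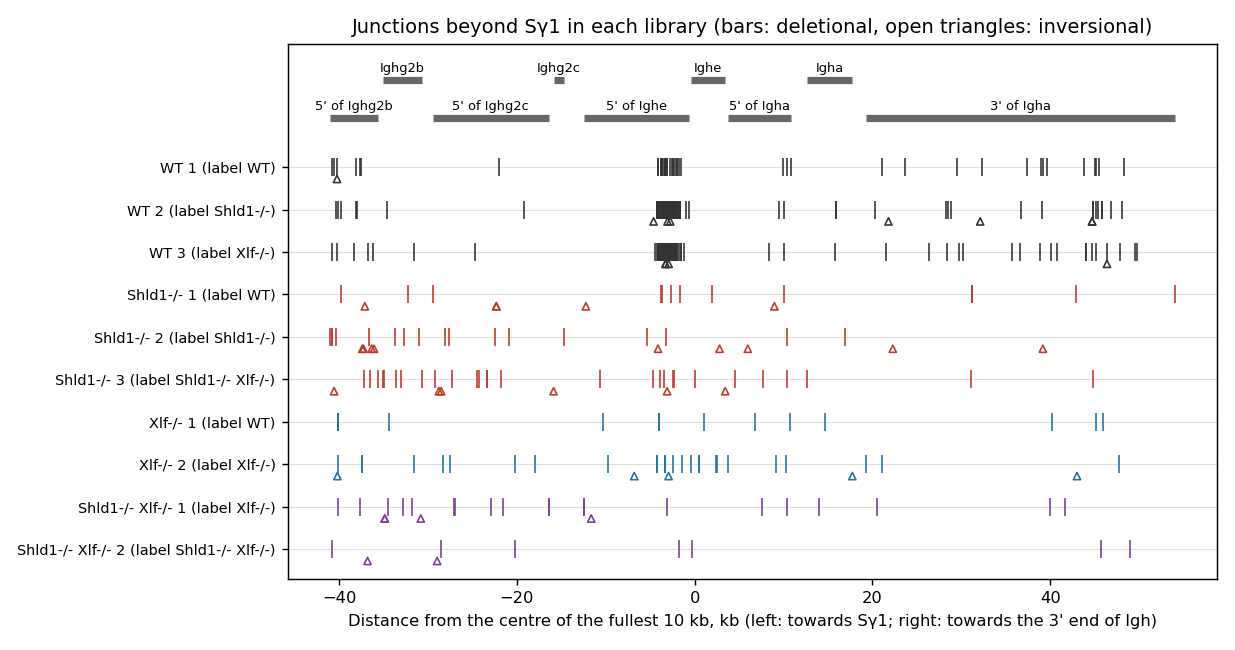
Position of every member in each library, as distance in kb from the centre of the fullest 10 kb of the window, with Sγ1 to the left. Colours stand for the printed genotype, the GEO label is in brackets, and the grey bars on top span the members of each stretch. The dense bars just left of 0 are the 200 WT junctions on the 5′ side of Ighe.

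The junctions printed next show what was joined to the bait. The first 4 lie on the 5′ side of Ighe and are, within their class, the nearest to the median position of that group. The fifth is the inversional Shld1-/- junction nearest the median of its kind outside that stretch, and the last carries the longest microhomology (MH) that matched the bait without mismatch, 11 bp. Each was read from the deposited reads, 5′ to 3′ from bait to prey, with 25 bases on either side. Capitals mark the MH, the bases that bait and prey share at the join, or in a direct join the last bait and first prey base. They were chosen after the data had been seen. MH lengths are those of the listed alignments, and 3 of the 272 members whose MH could be compared with the bait base by base held a mismatch in it, 1 each in Shld1-/- 3, Xlf-/- 2 and Shld1-/- Xlf-/- 1.
Direct join, WT 3, prey at chr12:114513999 (mm9): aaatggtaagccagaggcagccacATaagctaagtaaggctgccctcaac
MH of 4 bp, WT 2, prey at chr12:114514047: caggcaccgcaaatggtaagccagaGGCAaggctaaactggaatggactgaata
MH of 4 bp, Shld1-/- 2, prey at chr12:114514192: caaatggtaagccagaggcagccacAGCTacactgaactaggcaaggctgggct
MH of 5 bp, Xlf-/- 2, prey at chr12:114514350: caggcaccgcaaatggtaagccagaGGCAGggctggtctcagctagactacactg
Inversional, MH of 2 bp, Shld1-/- 1, 5′ of Ighg2c, prey at chr12:114533339: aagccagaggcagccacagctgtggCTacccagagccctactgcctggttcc
Deletional, MH of 11 bp, Xlf-/- 1, 5′ of Ighg2b, prey at chr12:114551137: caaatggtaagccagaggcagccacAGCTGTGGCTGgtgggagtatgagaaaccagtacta

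The 5′ side of Ighe, where the switch region of ε lies, was the main site of joining beyond Sγ1 in the libraries printed as WT. It held 24 of 48 members in WT 1, 101 of 130 in WT 2 and 75 of 104 in WT 3. In the Shld1-/- libraries it held 5 of 18, 3 of 26 and 7 of 34 members. It held 3 of 14 and 10 of 32 members in Xlf-/- and 4 of 24 and 1 of 9 in Shld1-/- Xlf-/-. All 3 WT libraries thus had a larger share of their members there than any other library, the lowest WT share being 50% (36.4% to 63.6%) and the highest of the rest 31.2% in Xlf-/- 2 (18.0% to 48.6%). The stretch was marked out after the positions had been seen, and 200 of its 233 junctions were from WT. A higher WT share is therefore in part built into the choice, and the values are a description.

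As a share of Igh junctions, the 5′ side of Ighe took 0.943% ± 0.336 in WT (SD, n = 3), 0.205% ± 0.0900 in Shld1-/- (n = 3), 0.205% ± 0.0940 in Xlf-/- (n = 2) and 0.126% ± 0.0556 in Shld1-/- Xlf-/- (n = 2). The WT libraries stood at 0.584%, 1.25% and 0.996%, and the other 7 between 0.0863% and 0.276%, so that the WT values did not overlap with the rest. This, too, is in part built into the choice of the stretch. Grouped by GEO label, the means were 0.319% for WT, 0.677% for Shld1-/-, 0.477% for Xlf-/- and 0.181% for Shld1-/- Xlf-/-, with SDs up to 0.810. Set against Sγ1 in the same library, the 5′ side of Ighe took 1.01%, 1.91% and 1.53% of the junctions of both sites in WT. In Shld1-/- these values were 0.914%, 0.340% and 0.864%, in Xlf-/- 0.295% and 0.519%, and in Shld1-/- Xlf-/- 0.649% and 0.332%. By GEO label the means were 0.740%, 1.12%, 0.899% and 0.598%. The values printed as WT were again the highest, but Shld1-/- 1, with 5 such junctions and an interval from 0.391% to 2.12%, was close to WT 1.

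The WT junctions of this stretch formed 1 narrow peak. Their median was 114513929 and 5% to 95% of them lay between 114512782 and 114515097 (mm9). Over all genotypes, 222 of the 233 fell into the neighbouring bins 114512000 to 114513999 and 114514000 to 114515999, which were the fullest of the 51 bins of 2 kb. In GRCm38 the matched junctions lay mostly between 113274548 and 113277253 (5% to 95%), 1.3 to 4.0 kb on the 5′ side of the Ighe gene model (113269260 to 113273248). All but 2 of the 200 WT junctions were in these 2 bins, against 12 of 15 in Shld1-/-, 10 of 13 in Xlf-/- and 2 of 5 in Shld1-/- Xlf-/-. Of the 10 positions of the window met in 2 libraries, 9 were on this side of Ighe.

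**Figure D2:**
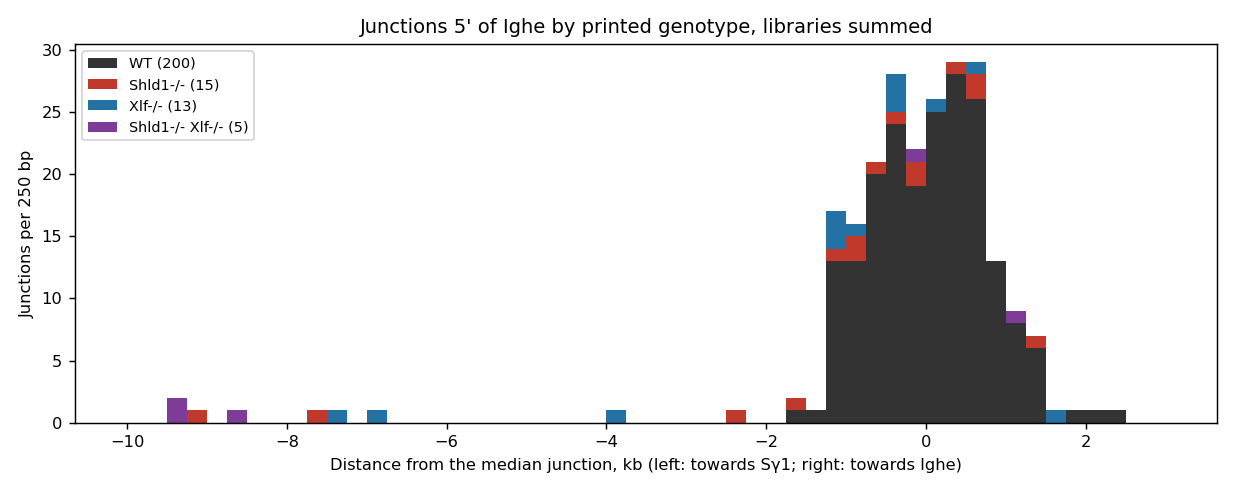
Junctions on the 5′ side of Ighe per 250 bp, as distance in kb from their median, with the libraries of each printed genotype summed and stacked. Of the 233 junctions, 200 were from WT, and the few that lay over 2 kb towards Sγ1 were from the other genotypes.

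At the end of the window near Sγ1, the libraries printed without SHLD1 were the highest. The stretch from Ighg2c to its end near Sγ1, which holds the genes and 5′ sides of Ighg2c and Ighg2b, the genes of the IgG2 subclasses, had 96 members. It took 0.195%, 0.0863% and 0.0929% of Igh junctions in WT and 0.283%, 0.590% and 0.750% in Shld1-/-. In Xlf-/- it took 0.183% and 0.244%, and in Shld1-/- Xlf-/- 0.578% and 0.431%. All 5 libraries that lack SHLD1 as printed lay above all 5 that have it, with means of 0.125% ± 0.0609 in WT, 0.541% ± 0.237 in Shld1-/-, 0.213% ± 0.0431 in Xlf-/- and 0.504% ± 0.104 in Shld1-/- Xlf-/-. The nearest, Shld1-/- 1 (0.13% to 0.616%) and Xlf-/- 2 (0.129% to 0.464%), overlap within their intervals. The stretch was also merged from smaller ones after the positions had been seen, and its largest part did not separate the libraries. On the 5′ side of Ighg2b, WT 1 (0.17%) was above Shld1-/- 1 (0.0943%), Shld1-/- 3 (0.158%) and Shld1-/- Xlf-/- 1 (0.0825%). Shld1-/- 2 (0.312%) and Shld1-/- Xlf-/- 2 (0.173%) were above WT 1 there. Rows flagged for mapping quality made up 15.8% to 42.2% of Igh rows but none of the members. Shares of Igh junctions in this and the other stretches were not recomputed without them, so the order of the libraries could change. By GEO label the means were 0.220%, 0.338%, 0.305% and 0.591%.

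Within this stretch the members were scattered. The fullest bin, 114550000 to 114551999 at the edge nearest Sγ1, held 22 junctions from all 10 libraries and 0.0706% of Igh junctions on average. Bin 114548000 to 114549999, also 5′ of Ighg2b, held 13 and 0.0363%. Bin 114538000 to 114539999, 5′ of Ighg2c, held 10 junctions and 0.0456%, and 0 of them were from the 3 WT libraries. The 10 kb between the window and Sγ1, which is not part of it, held 295 junctions, of which 190 were from Shld1-/- and 90 from Shld1-/- Xlf-/-, but 6 from WT and 9 from Xlf-/-. Their number went from 117 in the 2 kb next to Sγ1 to 19 in the 2 kb next to the window. Whether the members near that edge share their origin with these junctions was not tested.

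On the 5′ side of Igha, where the switch region of α lies, the lists held 21 members. Bin 114500000 to 114501999, the other of the 6 fullest bins, held 13 of them from 9 libraries and 0.0374% of Igh junctions. For 10 of the 21, the prey sequence of 26 to 58 bases did not match 1 place in GRCm38, so that their place rests on the deposited position. Only 9 of the 21 had no inserted base at the join.

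Beyond Igha, on the side of the 3′ regulatory region, 70 members were spread over 114456937 to 114491723 at 68 positions. In WT they took 0.316%, 0.222% and 0.252% of Igh junctions. In Shld1-/- they took 0.189%, 0.0694% and 0.0790%, in Xlf-/- 0.138% and 0.109%, and in Shld1-/- Xlf-/- 0.124% and 0.173%. The WT libraries were the 3 highest on this scale, and each of the other 7 rests on 2 to 4 junctions. Of Igh junctions outside Sμ the WT libraries had 0.535%, 0.336% and 0.381%, Shld1-/- 1 had 0.540% and Shld1-/- Xlf-/- 2 had 0.475%, so that the groups overlapped. By GEO label the means of the share of all Igh junctions were 0.214%, 0.146%, 0.162% and 0.126%. Of the 70 junctions, 24 lay between 114464000 and 114467999, 19 of them from WT. Direct joins made up 17 of the 48 WT junctions without insertion here, 0 of 6 in Shld1-/-, 1 of 7 in Xlf-/- and 0 of 5 in Shld1-/- Xlf-/-. The counts outside WT are too small for a difference to be read from them.

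Taken whole, the window held 1.17% (48 of 4109), 1.60% (130 of 8110) and 1.38% (104 of 7533) of Igh junctions in WT. In Shld1-/- it held 0.849%, 0.902% and 1.34%, in Xlf-/- 0.642% and 0.869%, and in Shld1-/- Xlf-/- 0.990% and 0.777%. The Shld1-/- range overlapped with WT, and both Xlf-/- libraries were below all WT libraries. Loss of SHLD1, compared within XLF genotypes, went with a difference of -0.112 percentage points (exact two-sided permutation test, p = 0.433, adjusted p = 0.506) and loss of XLF, within SHLD1 genotypes, with -0.388 (p = 0.0700, adjusted p = 0.163). Without rows flagged for mapping quality (15.8% to 42.2% of Igh rows and none of the members) the SHLD1 difference was -0.531 (exact permutation p = 0.05) and the XLF difference -0.749 (p = 0.03), and with the edge moved 12 kb away from Sγ1 the SHLD1 difference was -0.271 (p = 0.117). By GEO label the differences were 0.173 (p = 0.460 by the same exact permutation test) and 0.000333 (p = 1.0). The exact permutation tests could not go below p = 0.0167 for SHLD1 and 0.0100 for XLF, and adjustment was over 14 tests, of 7 measures and both genes, of which 3 had an unadjusted p under 0.05 and 0 an adjusted one. One of the 3 is that of the fullest 10 kb, which is not read as a test.

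Without the 5′ side of Ighe, the order of the genotypes was another. That stretch was marked out after the positions had been seen and held 200 of the 282 WT members. A larger fall of the WT share without it is therefore built into the choice, and the new order is a description only. The rest of the window took 0.442% ± 0.123 of Igh junctions in WT, 0.827% ± 0.230 in Shld1-/-, 0.550% ± 0.0658 in Xlf-/- and 0.757% ± 0.0955 in Shld1-/- Xlf-/-. The 3 Shld1-/- libraries, at 0.613%, 0.798% and 1.07%, were all above the WT libraries at 0.584%, 0.358% and 0.385%. Shld1-/- 1 (0.359% to 1.05%) and WT 1 (0.393% to 0.868%) overlap within their intervals, however. These shares, too, were not recomputed without the Igh rows flagged for mapping quality. By GEO label the means were 0.567%, 0.578%, 0.602% and 0.880%.

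**Figure D3:**
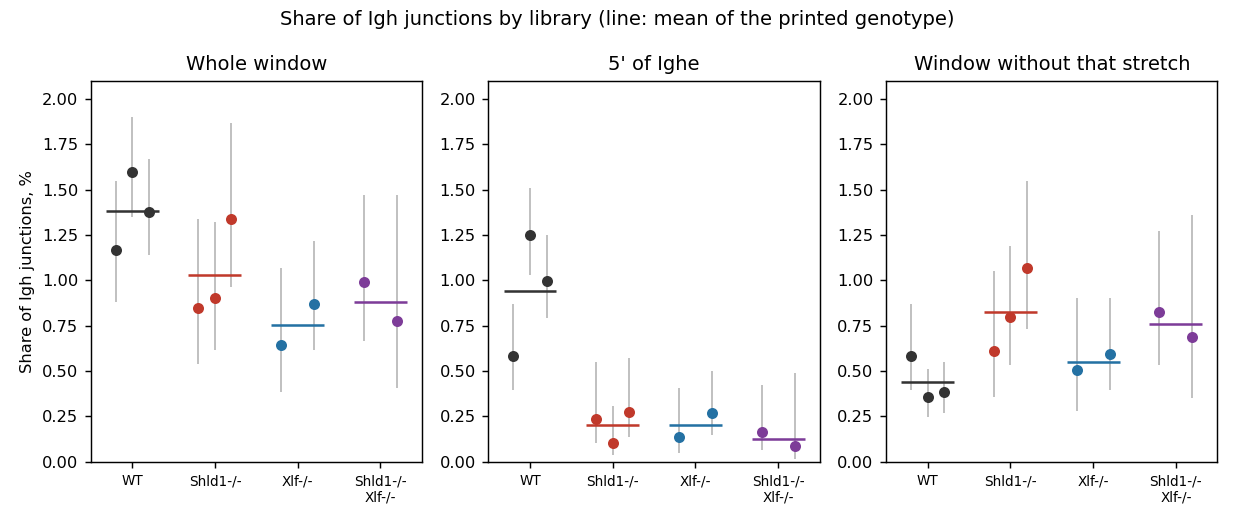
Share of Igh junctions in % for each library, by printed genotype, in the whole window, on the 5′ side of Ighe and in the rest of the window. Points are libraries with 95% Wilson intervals and lines are genotype means. WT is highest on the 5′ side of Ighe (mean 0.943%) and lowest in the rest (0.442%). That stretch was marked out after the positions had been seen, and 200 of its 233 junctions were from WT.

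The denominator is set in part by joins within Sμ, which were counted as Igh junctions. Of Igh junctions outside Sμ, the window took 1.98%, 2.43% and 2.08% in WT, 2.43%, 2.03% and 2.90% in Shld1-/-, 1.30% and 1.56% in Xlf-/-, and 2.53% and 2.14% in Shld1-/- Xlf-/-. The difference with SHLD1 loss was then 0.597 points (exact permutation test, p = 0.0833, adjusted p = 0.167) and with XLF loss -0.424 (p = 0.100, adjusted p = 0.175). By GEO label they were 0.393 (p = 0.210, exact permutation test) and 0.224 (p = 0.450). Without the rows flagged for mapping quality, the SHLD1 difference was -0.0376 (exact permutation p = 0.900).

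The share of the members in the fullest 10 kb, 114506000 to 114515999, was 50%, 77.7% and 72.1% in WT. It was 27.8%, 11.5% and 26.5% in Shld1-/-, 21.4% and 43.8% in Xlf-/-, and 4.17% and 22.2% in Shld1-/- Xlf-/-. The WT values did not overlap with the others. The difference was -32.0 points with SHLD1 loss (exact permutation test, p = 0.0333, adjusted p = 0.156) and -21.4 with XLF loss (p = 0.0600, adjusted p = 0.163), against -2.06 (exact permutation p = 0.940) and -6.66 (p = 0.733) by GEO label. The 10 kb were chosen on the same junctions, of which WT gave most, so a lower share in the other genotypes is built into the choice and nothing is read from these p-values.

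Inversional joins were a small part of the members in WT and a larger one in the libraries printed without SHLD1. They made up 1 of 48 members in WT 1, 7 of 130 in WT 2 and 4 of 104 in WT 3. In Shld1-/- they made up 5 of 18, 9 of 26 and 6 of 34, in Xlf-/- 0 of 14 and 5 of 32, and in Shld1-/- Xlf-/- 4 of 24 and 2 of 9. The means were 3.77% ± 1.65 in WT, 26.7% ± 8.56 in Shld1-/-, 7.80% ± 11 in Xlf-/- and 19.4% ± 3.89 in Shld1-/- Xlf-/-. All libraries without SHLD1 were above all libraries with it, the nearest being Shld1-/- Xlf-/- 1 at 16.7% (6.68% to 35.9%) and Xlf-/- 2 at 15.6% (6.86% to 31.8%), which overlap within their intervals. The Wilson interval of the 0 of 14 in Xlf-/- 1 reaches 21.5%.

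The difference with SHLD1 loss was 17.3 percentage points and had the smallest p that the exact permutation test can give, 0.0167, which after adjustment was 0.117. With the edge of the window moved 12 kb away from Sγ1 it was 14.0 (exact permutation p = 0.05). With XLF loss it was -1.60 (exact permutation test, p = 0.720, adjusted p = 0.720). By GEO label the SHLD1 difference was 8.97 (p = 0.260, exact permutation test). Outside the 5′ side of Ighe, inversional joins made up 7.32% of the summed WT members (6 of 82) and 27.0% of the Shld1-/- members (17 of 63), as a description without test. Of the 20 inversional joins of Shld1-/-, 11 lay between Ighg2c and the edge near Sγ1, with 6 on the 5′ side of Ighg2b, 4 on that of Ighg2c and 1 in Ighg2c. This was also where 42 of all 78 Shld1-/- members lay.

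Direct joins, which have no MH and no insertion, are typical of NHEJ. Of members without insertion, they were 37.8%, 24.8% and 38.6% in WT and 7.14%, 0.0% and 4.55% in Shld1-/-. In Xlf-/- they were 15.4% and 16.7%, and in Shld1-/- Xlf-/- 5.00% and 11.1%. The WT libraries were the 3 highest and the 5 libraries without SHLD1 the lowest, the latter with 0 to 1 direct join each. The difference with SHLD1 loss was -18.9 points (exact permutation test, p = 0.0167, the smallest it can give, adjusted p = 0.117), and with XLF loss -6.78 (p = 0.260, adjusted p = 0.364). By GEO label they were -10 (p = 0.310, exact permutation test) and -2.29 (p = 0.833). Among deletional members alone the SHLD1 difference was -16.7 (exact permutation p = 0.0167), and with the edge of the window moved 12 kb away from Sγ1 -15.6 (p = 0.05). Outside the 5′ side of Ighe, 22 of 72 WT members and 0 of 49 Shld1-/- members were direct, and the Wilson interval of the latter reaches 7.27%.

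MH of more than 3 bp is linked with alternative end-joining. It was found in 10.8%, 18.3% and 7.95% of the members without insertion in WT, in 42.9%, 58.3% and 18.2% in Shld1-/-, in 53.8% and 36.7% in Xlf-/- and in 35.0% and 33.3% in Shld1-/- Xlf-/-. The WT libraries were the lowest, except that WT 2 (18.3%, 12.2% to 26.6%) and Shld1-/- 3 (18.2%, 7.31% to 38.5%) were alike. SHLD1 loss within XLF genotypes went with 8.16 points (exact permutation test, p = 0.383, adjusted p = 0.488) and XLF loss with 13.6 (p = 0.220, adjusted p = 0.342). Leaving out 1 library moved the first from 3.53 (without Shld1-/- 2) to 13.6 (without Shld1-/- 3) and the second from 8.23 (without Shld1-/- 3) to 18.3 (without Shld1-/- 2), and with the edge moved 12 kb away from Sγ1 the second was 3.37. By GEO label they were 0.860 (p = 0.960, exact permutation test) and -10.9 (p = 0.383). The 3 mutant genotypes each had a higher mean than WT (12.4% ± 5.35), at 39.8% ± 20.2, 45.2% ± 12.1 and 34.1% ± 1.20, and no pair of genotypes can go below p = 0.100 in an exact permutation test.

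The median MH length of members without insertion was 1 bp in WT. In WT, lengths of 0 and 1 bp were the most frequent (32.1% and 27.8% of 234 junctions). In the other genotypes the most frequent length was 2 bp, with 30.0% of 60 junctions in Shld1-/-, 23.3% of 43 in Xlf-/- and 27.6% of 29 in Shld1-/- Xlf-/-. The 83 members with more than 3 bp had 65 different MH sequences. Some of these are overlapping pieces of the same bait bases, such as CACAGCTGT and AGCTGTGG, so their number does not tell how many repeats were used. The most frequent sequence was GCTG with 6 junctions, followed by GCAG with 3, and 13 of the 83 members held GCTG within their MH.

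**Figure D4:**
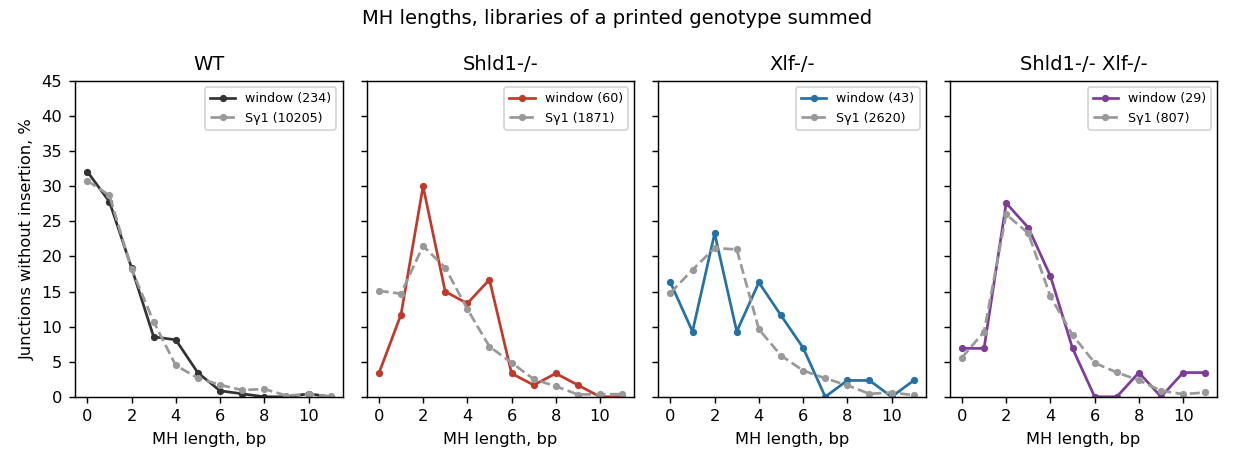
MH length in bp against the share of junctions without insertion in %, in the window (coloured) and in Sγ1 (grey, dashed), with the libraries of each printed genotype summed and the number of junctions in brackets. The window and Sγ1 curves of WT lie close to each other, and in the other genotypes the window rests on 60 junctions or fewer. The 42 Sγ1 junctions with over 11 bp are beyond the axis.

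Insertions between bait and prey were found in 22.9%, 16.2% and 15.4% of members in WT, 22.2%, 7.69% and 35.3% in Shld1-/-, 7.14% and 6.25% in Xlf-/-, and 16.7% and 0.0% in Shld1-/- Xlf-/-. Both Xlf-/- libraries were below all WT libraries, while Shld1-/- had both a value near theirs and the highest of all. The differences were 2.61 points with SHLD1 loss (exact permutation test, p = 0.633, adjusted p = 0.682) and -12.4 with XLF loss (p = 0.0700, adjusted p = 0.163). By GEO label they were -0.312 (p = 0.980, exact permutation test) and 0.532 (p = 0.967).

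Members were then set against the Sγ1 junctions of the same library, a comparison that needs no genotype name. Inversional joins were 14.6% of members and 18.7% of Sγ1 junctions on average, a difference of -4.15 points ± 8.34 (SD over 10 libraries, exact sign-flip permutation test, p = 0.146, adjusted p = 0.324). Direct joins differed by -1.89 ± 8.07 (p = 0.475, adjusted p = 0.633), MH over 3 bp by 6.97 ± 14.0 (p = 0.162, adjusted p = 0.324) and insertions by 0.526 ± 8.55 (p = 0.857, adjusted p = 0.857), by the same exact permutation test. With this spread, differences of several points between the sites were not detectable. In Sγ1, inversional joins were 4.27% to 5.10% in WT, 20.5% to 29.4% in Shld1-/-, 9.46% and 15.4% in Xlf-/- and 31.0% and 38.7% in Shld1-/- Xlf-/-, so that the WT libraries were the lowest there. The Shld1-/- Xlf-/- libraries were the highest in Sγ1 but not in the window, where they rest on 24 and 9 members.

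**Figure D5:**
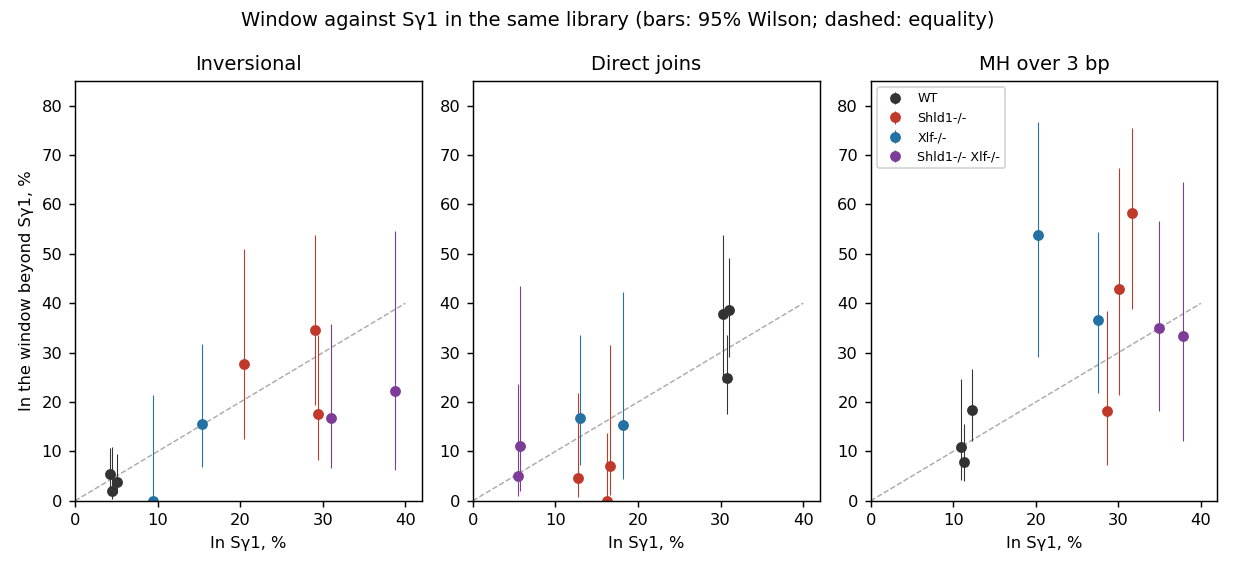
Share in the window against share in Sγ1 of the same library, both in %, for inversional joins, direct joins and MH over 3 bp, with 95% Wilson intervals for the window and a dashed line of equality. Points lie on both sides of the line, with mean differences of -4.15, -1.89 and 6.97 points.

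Prey sequences were searched for AGCT, a motif that reads the same on both strands and is a preferred target of AID. It was found in the first 50 prey bases of 73.5% of the members on the 5′ side of Ighe that had such a length of prey (150 of 204), of 8 of 13 on the 5′ side of Igha and of 43.1% of the other members (72 of 167). The shares for Sγ1 and Sμ junctions were 62.0% and 56.7%, and 32.6% of all 50-base stretches of GRCm38 between the outermost matched members held the motif. The other members had AGCT in 42.3% of cases in WT (30 of 71), 40.4% in Shld1-/- (19 of 47), 13 of 25 in Xlf-/- and 10 of 24 in Shld1-/- Xlf-/-.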

How the data were processed

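CSR-HTGTS libraries were made from genomic DNA of stimulated splenic B cells. Per the labels, the authors mapped reads to mm9 with Bowtie2, and they deposited for each library a list with 1 row per junction, giving where prey and bait align in the genome and on the read, their strands and the filter results, with no normalization. The version of Bowtie2 was not given in the sources used here. Lists of 10 C57BL/6 libraries were used. Not used here were 2 lists that hold only MH lengths and 3 lists of another strain. All listed rows were counted, with 1159 to 8110 in Igh.

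The window, the genotypes as printed, the measures and the gene stretches were chosen with earlier results of these data known. Libraries were assigned to printed genotypes, and by GEO label in an alternative. A junction was called inversional when prey and bait lay on opposite strands. MH length is the number of read bases that both the bait and the prey alignment cover, negative values are insertions, and members with insertion were left out of direct joins and MH shares. Sγ1 was 114562000 to 114581999 and Sμ 114653500 to 114673499. The Sγ1 window is thus wider than core Sγ1, which starts at 114569000, and also holds the Ighg1 gene. Regions described were those named in the lists (0 in the window) and the 6 bins of 2 kb with the largest mean share of Igh junctions. Since no named region was found, the sequences shown were chosen after the data had been seen.

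Prey sequences were matched to chromosome 12 of GRCm38 with bwa 0.7.19, and no coordinates were converted. Exact two-sided permutation tests compared library values, within XLF genotypes for SHLD1 and the reverse, with Benjamini-Hochberg adjustment over 14 tests. The window was set against Sγ1 by an exact sign-flip test over 10 libraries. The study describes its samples as independent mice of each genotype, while the labels name no mouse for a library, so p-values measure the spread between libraries. Alternatives were the GEO label, rows without duplicate or mapping-quality flags, repeated junctions counted once, other window edges, core Sγ1, deletional junctions only, pooled junctions, and each library left out. Python 3.11.15, numpy 2.4.6 and pandas 2.3.3 were used, and the functions were tested on simulated data.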

Additional observations from a re-analysis of the deposited data

Results flagged for a closer look

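In 4 comparisons by printed genotype, the mean difference had opposite signs in the genetic backgrounds compared. In 1 background all libraries lay above the mean of their reference genotype, and in the other all lay below it. Each library was set against that mean only. In every comparison, some libraries lay within the range of the reference libraries. The differences were not tested, since 2 or 3 libraries stand in each genotype. In the window's share of Igh junctions, all 3 Shld1-/- libraries were below the WT mean (a mean difference of -0.353 points) and both Shld1-/- Xlf-/- libraries above the Xlf-/- mean (0.128), so that the effects differed by 0.481. Shld1-/- 3 (1.34%) was above WT 1 (1.17%), however, and Shld1-/- Xlf-/- 2 (0.777%) was below Xlf-/- 2 (0.869%). For direct joins, Xlf-/- was below WT by a mean difference of -17.7 points and Shld1-/- Xlf-/- above Shld1-/- by 4.16, a difference of 21.9. The value of 4.16 rests on 1 of 20 and 1 of 9 members without insertion in Shld1-/- Xlf-/-. In Shld1-/- direct joins were 1 of 14, 0 of 24 and 1 of 22, which left little room for a lower value.

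For MH over 3 bp, the means of Shld1-/- minus WT and of Shld1-/- Xlf-/- minus Xlf-/- were 27.4 and -11.1 points, and those of Xlf-/- minus WT and of Shld1-/- Xlf-/- minus Shld1-/- were 32.9 and -5.62. Both pairs differ by -38.5. The Shld1-/- Xlf-/- values rest on 20 and 9 members without insertion.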

How the results depend on the processing

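The threshold here is an unadjusted exact permutation p under 0.05. Nothing is read from the fullest 10 kb, which were chosen on these junctions, and their values are given for completeness. Grouping by GEO label changed the most. Under it the SHLD1 differences in inversional joins (8.97), direct joins (-10) and the fullest 10 kb (-2.06) no longer passed. The direction turned for the Igh share with SHLD1 loss (0.173) and XLF loss (0.000333), and with XLF loss for the share outside Sμ (0.224), inversional joins (1.01), MH over 3 bp (-10.9) and insertions (0.532), and with SHLD1 loss for insertions (-0.312). The interaction of the Igh share was -0.386 by label against 0.481. Without rows flagged for mapping quality, the XLF difference of the Igh share passed (-0.749), that of SHLD1 was -0.531, the SHLD1 difference outside Sμ turned (-0.0376) and the interaction was 0.930. With repeated junctions counted once, the XLF difference in insertions passed (-13.2), and insertions in the window minus Sγ1 turned to -0.196. With the upper edge moved 12 kb away from Sγ1, inversional joins (14.0) and direct joins (-15.6) had p = 0.05 for SHLD1 in the exact permutation test, and the XLF difference in the fullest 10 kb passed (-22.7). The lower edge, core Sγ1, duplicate flags, deletional junctions and, added after seeing the data, leaving out members with a mismatch in the MH changed none of the calls they were run on. Pooled junctions gave values with no test, none of which moved by more than the spread between libraries.

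Leaving out each library in turn gave, for SHLD1, 13.4 to 21.2 points in inversional joins and -21.2 to -17.4 in direct joins, all passing. The SHLD1 difference in the fullest 10 kb was -37.6 to -26.5 and did not pass without Shld1-/- 2 (-29.4), Xlf-/- 2 (-26.5) or Shld1-/- Xlf-/- 1 (-27.5). The XLF difference there was -27.0 to -15.8, and passed without Shld1-/- 2 (-24.0) or Shld1-/- Xlf-/- 2 (-25.9). For insertions, the range was -16.6 to -8.26 with XLF loss, passing without Shld1-/- 2 (-15.9), -1.56 to 6.78 with SHLD1 loss, and -1.36 to 1.99 for the window minus Sγ1. The XLF difference in inversional joins ran from -5.50 to 2.31. For MH over 3 bp the ranges were 3.53 to 13.6 with SHLD1 loss and 8.23 to 18.3 with XLF loss. No analysis that pairs libraries of different genotypes was run, and the replicate numbers used here are only names. The numbers in the library titles run through the printed genotypes in the same order repeat by repeat. Whether libraries of 1 repeat belong together was not tested, and the permutation tests between genotypes took no account of it. The cause of these changes was not tested. With 9 to 34 members in each library not printed as WT, a share of 0 allows up to 8.82% to 33.3%. This bound is 3 divided by the number of members and not a Wilson limit.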
